A study of Mus musculus with 4 samples.

Results

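The genes of the glutamate and GABA receptors were followed through a list of chromatin interactions from a mouse brain tumor. The 41 genes were chosen by symbol alone: the autosomal protein-coding genes of the AMPA (Gria), kainate (Grik), delta (Grid), NMDA (Grin) and metabotropic (Grm) glutamate receptors, of the GABA-A receptor subunits alpha, beta, gamma and rho (Gabra, Gabrb, Gabrg, Gabrr) and of the GABA-B receptor (Gabbr), among 20665 autosomal protein-coding genes in all. A further 2 genes with such symbols, Gria3 and Gabra3, lie on chromosome X, for which the list holds no interaction, and were not scored. The series describes H3K27ac HiChIP, which ligates chromatin fragments that are near each other in space and selects those that carry acetylated lysine 27 of histone H3, a mark of active promoters and enhancers. Its labels give 2 libraries of YAP-M tumor, brain tissue with the genotype YAP-M fusion (a fusion of YAP1 with MAMLD1), from which tumor cells were isolated per the design text. The other 2 libraries are of wild-type neural progenitor cells, grown as neural stem cells in proliferation medium with EGF, basic FGF and heparin. All 4 were made with an H3K27ac antibody, and their titles say ChIP-seq where the protocol and design text say HiChIP. The deposited list of 99041 interactions names no library. It is read here, from the letters YM in its name, as that of the tumor. The age and strain of the animals, the promoter that drives the fusion and whether tumors were pooled are not given in the labels.

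Glutamate is the main excitatory and GABA the main inhibitory transmitter of the brain. AMPA, kainate and NMDA receptors are cation channels opened by glutamate, metabotropic receptors signal through G proteins, GABA-A receptors are chloride channels built from several subunits, and the GABA-B receptor is a G protein-coupled dimer of the products of Gabbr1 and Gabbr2. Neurons express most of these genes at synapses, and astrocytes and neural progenitors express some of them. Many are very long genes that stand in gene-poor regions.

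An interaction in the list is a pair of anchors, which are bins of 10 kb, and it was assigned to a gene when an anchor overlapped the gene body or 2.5 kb around either end of the gene. The list gives positions and no read counts, so the depth is unknown and a gene with a count of 0 had no interaction detected at this depth, which does not show that it has none. There is 1 list, so no value has a replicate error and no test between conditions was possible. Exact (Clopper-Pearson) 95% intervals on shares cover counting error only.

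At 27 of the 41 receptor genes (65.9%, exact 95% interval 49.4 to 79.9%) at least 1 interaction was listed, against 67.8% of all autosomal coding genes. The order of these shares turned with the assignment: receptor genes had 61.0% and all coding genes 60.3% with the bin midpoint, and 56.1% and 46.6% without bins shared between genes. The share of genes with an interaction thus lay near that of coding genes in general, but the counts were low for genes of this length. The median was 2 interactions per receptor gene (interquartile range 0 to 4), against 3 (0 to 9) over all coding genes, although the median span was 184 kb for the receptor genes and 17.5 kb for all coding genes. Of the 1241 bins that the receptor genes cover, 96 were anchors (7.74%), against 32.3% of the bins of all coding genes. By span, 7 of 10 receptor genes under 50 kb had an interaction, against 63.5% of all coding genes of that span. The count was 4 of 7 at 50 to 100 kb, against 80.8%, and 2 of 4 at 100 to 200 kb, against 85.9%. It was 6 of 9 at 200 to 400 kb, against 84.3%, and 8 of 11 over 400 kb, against 77.5%. With so few receptor genes per class the intervals are wide: over 400 kb the exact 95% interval ran from 39.0 to 94.0%.

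Among genes of like span, most receptor genes had fewer interactions than the median coding gene. Their count lay below the median of their class at 29 of 41 genes (70.7%), above it at 10 (24.4%) and at it for 2, whereas 45.2% of all coding genes lay below the median of their class and 48.4% above. The median counts were 3 for receptor genes and 2 for all coding genes under 50 kb, 2 and 6 at 50 to 100 kb, 0.5 and 9 at 100 to 200 kb, 3 and 12 at 200 to 400 kb, and 2 and 8 over 400 kb. The share of bins that were anchors was lower as well in each class, and over 400 kb it was 3.82% for receptor genes against 13.4% for all coding genes. Potassium channel genes (92 genes with symbols that begin with Kcn), another family of ion channel genes, many of them neuronal, had an interaction at 72.8% and a median of 4 interactions per gene, with 22.9% of their bins as anchors. In classes of span they too lay below all coding genes from 50 to 400 kb, with medians of 3 against 6 at 50 to 100 kb, 4 against 9 at 100 to 200 kb and 9.5 against 12 at 200 to 400 kb. Over 400 kb their median was 12 against 8, and under 50 kb it was 3 against 2. Receptor genes had a median of 7 other coding genes within 500 kb, against 16 for all coding genes, and the part of gene density in the counts was not tested.

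**Figure D1:**
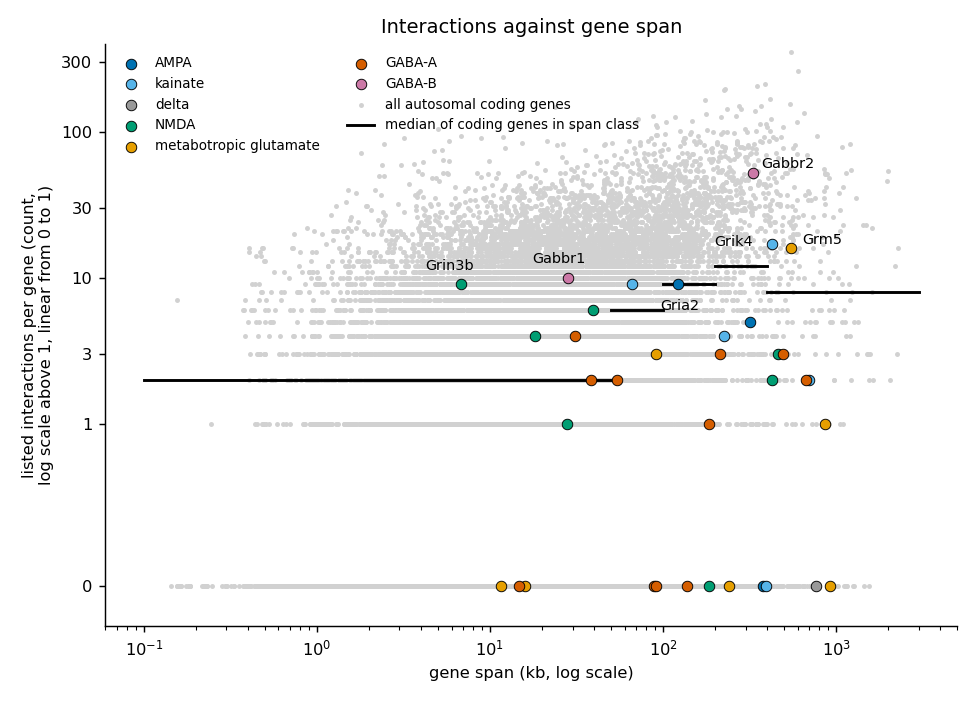
Listed interactions per gene (vertical axis, logarithmic above 1 and linear from 0 to 1) against the span of the gene in kb (horizontal axis, logarithmic). Grey points are all 20665 autosomal coding genes, black lines their median in each class of span, and coloured points the receptor genes named in the text, by class. Most coloured points from 50 kb upward lie below the black lines, with Gabbr2 at 52 interactions above them.

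The counts were concentrated on few receptor genes. Of 193 distinct interactions, 52 belonged to Gabbr2. Its count was 26.4% of the 197 summed over the receptor genes, where an interaction at more than 1 of them counts for each. By count, 4 genes had over 10 interactions, 5 had 6 to 10, 18 had 1 to 5 and 14 had none. Gabbr2 ranked 269th among all coding genes, and 1.40% of coding genes had as many interactions or more. Interactions that are adjacent at both anchors can be calls of 1 contact. Joined in this way, the interactions of the receptor genes formed 85 contacts, 16 of them at Gabbr2, 8 at Grik4 and 5 each at Grm5 and Gria2.

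**Figure D2:**
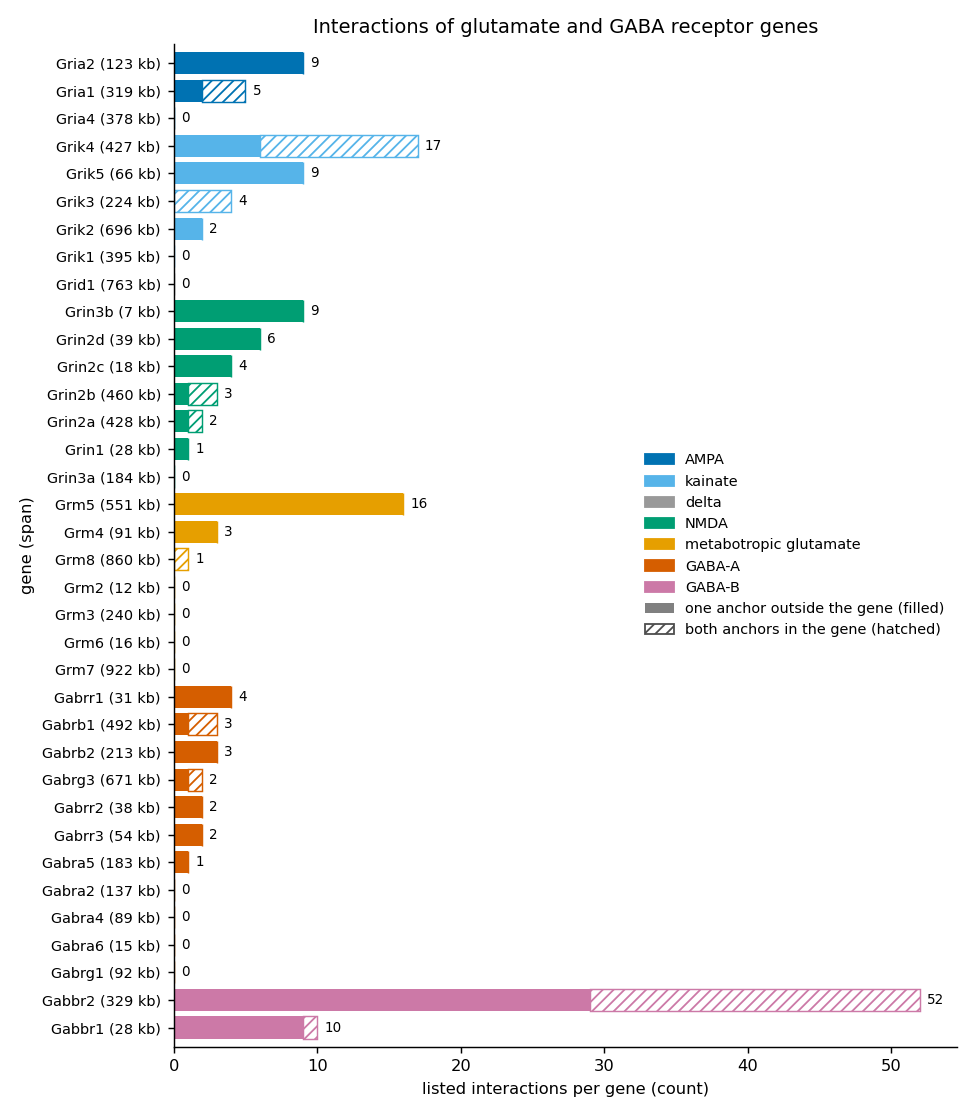
Number of listed interactions (horizontal axis) of the receptor genes named in the text, grouped by receptor class, with the gene span in kb after each symbol. The filled part of a bar counts interactions with 1 anchor outside the gene, the hatched part those with both anchors in the gene. Gabbr2 has the longest bar (52 interactions), and genes with 0 occur in several classes.

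The GABA-B receptor was the class with the highest counts. Both of its genes had an interaction, and 30 of their 39 bins (76.9%) were anchors. Gabbr2 encodes the subunit that couples to G proteins and lies on chromosome 4 from 46662318 to 46991714 (mm10, minus strand). It had 52 interactions over distances of 30 to 400 kb, more than 87.3% of the 607 coding genes of 200 to 400 kb. All 22 interactions at its annotated start joined the start to other bins within the gene, 60 to 300 kb away. A further 19 joined the gene to bins that lie in Anks6, upstream of the start, and none of these 19 had its anchor at the start of Gabbr2. Another 10 left the opposite end of the gene towards Tbc1d2, Coro2a, Trim14 and Nans, and 8 of them used the bin from 46650001 to 46660000. That bin lies outside the gene body, comes within 2.5 kb of its end only at the edge of the bin, and also overlaps Tbc1d2. It held an anchor of 10 interactions in all, since some of those to Anks6 used it too. Without this bin, Gabbr2 had 42 interactions. The last of the 52 joined bins inside the gene, at 46750001 and 46880001. Anchors covered 27 of the 35 bins of Gabbr2.

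Gabbr1, the subunit that binds GABA, lies on chromosome 17 from 37045966 to 37074305 (plus strand) and had 10 interactions. Of these, 6 were at its start and 4 in the next bin inside the gene, and 9 of the 10 reached partners at lower coordinates, upstream of the start, within 140 kb. Ends of Ppp1r11, Rnf39, Znrd1, Znrd1as and Trim31 stood in the partner bins. Merged by adjacency, the 10 formed 2 contacts. Kctd12, which encodes an auxiliary subunit of the GABA-B receptor, had 28 interactions, whereas Kctd16 had 5 and Kctd8 had 0. When merged, those of Kctd12 formed 4 contacts and those of Kctd16 formed 3.

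Among the 5 kainate receptor genes, 4 had an interaction. Grik4, encoding a high-affinity kainate receptor subunit, lies on chromosome 9 from 42518182 to 42945000 (minus strand). All of its 17 interactions had an anchor in the bin of the annotated start, from 42940001 to 42950000. From there 11 reached bins inside the gene and 6 reached beyond its far end, up to 630 kb away, where an end of Tecta was among the partners. Grik3, on chromosome 4 from 125490259 to 125714173 (plus strand), had 4 interactions, all with both anchors in the gene and 3 of them at the start. A further 43 interactions passed over Grik3 from 1 side to the other without an anchor in it. Grik5 (chromosome 7, 25009849 to 25075694) had 9, all from the bin of its start to partners at higher coordinates, which lie upstream on its minus strand. That bin also overlaps Zfp574, and partner bins held ends of 11 coding genes, among them Pou2f2 and Gsk3a, so these 9 cannot be given to Grik5 alone: it had 0 without shared bins and 16 with a window of 5 kb. Grik2, a gene of 696 kb, had 2 interactions, both in the bin from 49410001 to 49420000 inside the gene and none at the start, and Grik1 had none.

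**Figure D3:**
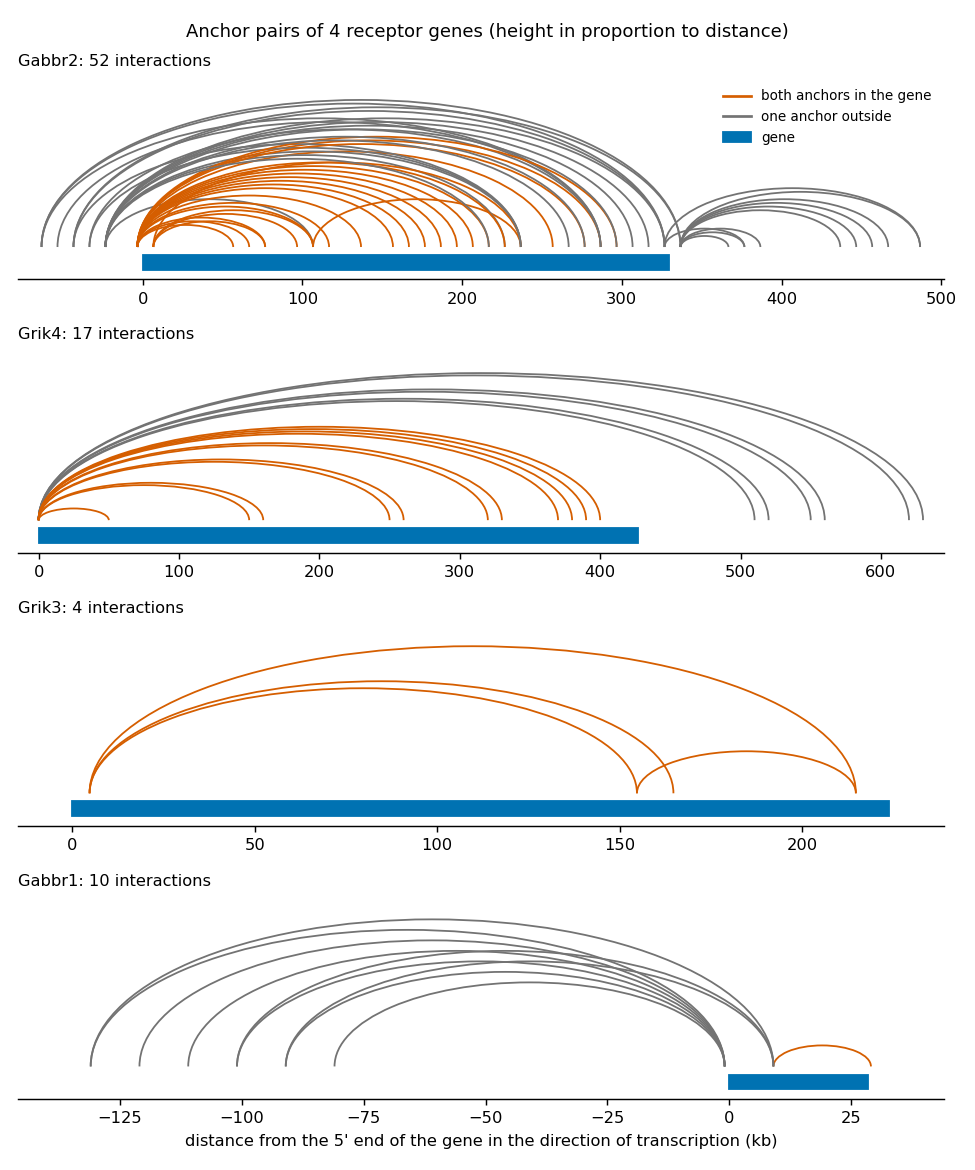
Anchor pairs of Gabbr2, Grik4, Grik3 and Gabbr1, each drawn as an arc between the centres of its 2 bins, with height in proportion to distance. The horizontal axis is the distance in kb from the 5′ end of the gene in the direction of transcription. Blue bars are genes, orange arcs have both anchors in the gene and grey arcs have 1 anchor outside. In Grik4 all 17 arcs rise from the start of the gene, in Gabbr2 the orange arcs fan out from the start, and in Gabbr1 the grey arcs run upstream.

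Of the 3 autosomal AMPA receptor genes, Gria2 had 9 interactions, Gria1 had 5 and Gria4 had none. Gria2 encodes the subunit that makes AMPA receptors impermeable to calcium and lies on chromosome 3 from 80681450 to 80804227 (minus strand). Its interactions ran over 460 to 980 kb with a median of 730 kb, against a median of 180 kb over the whole list. The bin of its start took part in 6, and 3 came from a bin at 80780001 to 80790000 inside the gene. Of the 9 partners, 8 lay at lower coordinates, beyond the far end of the gene, and for 8 of the 9 interactions the partner bin lay in no coding gene. Gria1 (319 kb) had 3 interactions within the gene and 2 with partners outside, up to 640 kb away. The span of 378 kb of Gria4 held no anchor.

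Delta receptors act at synapses as organisers more than as glutamate-gated channels. Grid1, which encodes a delta receptor, spans 763 kb on chromosome 14, covers 78 bins and had no interaction. It stood inside a stretch of 2080 kb without an anchor, from 34780001 to 36860000. Of 17431 stretches between neighbouring anchors in the list, 106 were at least as long, and the median was 30 kb.

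Of the 7 NMDA receptor genes, 6 had an interaction. Grin3b, a gene of 6.79 kb that encodes a glycine-binding subunit, had 9. However, 7 of them used a bin that lies outside the gene body and reaches into the 2.5 kb before its start. Its 2 bins also overlap Wdr18 or Tmem259, and the partners lay at ends of 8 coding genes, among them Stk11, Midn and Cirbp. The 9 formed 1 contact when merged, and the count was 2 with no window, 0 without shared bins and 23 with a window of 5 kb. Grin2d had 6 and Grin2c had 4 interactions, each within 140 kb. In Grin2d 3 of the 6 and in Grin2c all 4 stood in bins shared with another coding gene. Grin2d thus had 3 without shared bins, and 3 with the bin midpoint, and Grin2c had 0 without shared bins and 11 with a window of 5 kb. The obligatory subunit gene Grin1 had 1 interaction, over 50 kb, from the window beyond its start to a bin with ends of Anapc2, Ssna1 and Tprn, and 0 with no window. The long genes Grin2b (460 kb) and Grin2a (428 kb), which encode the main glutamate-binding subunits of the forebrain, had 3 and 2 interactions. In each of them all interactions had an anchor at the high-coordinate end, and 2 of 3 in Grin2b and 1 of 2 in Grin2a joined it to a site within the gene. Grin3a had no interaction.

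Metabotropic glutamate receptor genes had an interaction at 4 of 8, and 10 of their 318 bins (3.14%) were anchors. Grm5, the receptor coupled to phospholipase C that is also found in astrocytes, had 16 interactions. It lies on chromosome 7 from 87583981 to 88135063, and all 16 came from 4 adjacent bins near its high-coordinate end (88090001 to 88130000), none of them an end bin. The partners all lay at higher coordinates, 100 to 220 kb away, and 10 of the 16 lay in Ctsc, the gene of cathepsin C. The other 52 of the 56 bins of Grm5 held no anchor, and below the gene the nearest anchor was 2800 kb away. Grm4 had 3 interactions and Grm8, a gene of 860 kb, had 1, a link of 480 kb from its start to a site in the gene. The genes Grm2, Grm3, Grm6 and Grm7 had none. Grm3, which is expressed in astrocytes as well as neurons, had no anchor over 240 kb, and Grm7 had none over 922 kb and stood in an anchor-free stretch of 3340 kb.

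GABA-A receptor genes had an interaction at 9 of 14 and a median of 2. Most of them stand in clusters that hold genes of alpha, beta and gamma subunits, which assemble together into receptors. On chromosome 5, the cluster of Gabrg1, Gabra2, Gabra4 and Gabrb1 (1399 kb) had 3 interactions, and 4 of its 142 bins were anchors. All 3 were at Gabrb1: 2 inside the gene, both from a bin at its more internal annotated start, and 1 from a bin at its far end that also overlaps Commd8. Its neighbours Gabra4, Gabra2 and Gabrg1 had none and stood together in an anchor-free stretch of 3580 kb. On chromosome 7, Gabrg3 had 2 interactions at its start, of which 1 stayed in the gene. The other, of 90 kb, joined the start of Gabrg3 to a bin inside Gabra5 (57470001 to 57480000), and it was the only one at Gabra5. On chromosome 11, Gabrb2 had 3 interactions, all at its start, and Gabra6 had none.

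The rho subunit genes, best known from the retina, had few interactions. Gabrr1 had 4, to bins up to 170 kb away, 2 of them at an end of Rngtt (8 interactions with a window of 5 kb and 1 at gene ends alone), and Gabrr2, its neighbour on chromosome 4, had 2, of 500 and 510 kb, both to bins in Bach2. Gabrr3 had 2, both in a bin shared with Riox2, and 0 with the bin midpoint or without shared bins.

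Interactions with both anchors in the same gene made up 52 of the 193 (26.9%, and 29 of 141, 20.6%, without Gabbr2), against 13707 of 85747 (15.99%) for all coding genes, which are shorter. In genes of 200 to 400 kb the share was 37.5% for receptor genes against 34.9% for all coding genes, and over 400 kb it was 39.1% against 48.2%. At 200 to 400 kb, Gabbr2 gave 52 of the 88 interactions of receptor genes and 23 of the 33 inside a gene. The share of 37.5% thus rests mostly on Gabbr2. By gene, 11 receptor genes (26.8%) had at least 1, against 10.9% of all coding genes. The anchors of an interaction lie at least 20 kb apart, so the shortest genes cannot hold both. Of the 20 receptor genes over 200 kb, 10 had an interaction inside, against 599 of 945 (63.4%) of all coding genes over 200 kb. Among the 141 interactions with an outside partner, 69 (48.9%) reached a bin with an end of another coding gene. Counted once for each gene that an interaction touches, the share was 49.0% for receptor genes and 47.9% for all coding genes. The order turned with the assignment. The shares were 54.5% and 48.6% with a window of 5 kb, but 36.8% and 48.4% with gene ends alone and 39.4% and 45.6% with the bin midpoint. The distances had a median of 210 kb (interquartile range 130 to 380 kb), against 180 kb (100 to 300 kb) over the whole list. At an end of the gene, 22 of the 41 receptor genes (53.7%) had an interaction, against 65.7% of all coding genes.

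For 28 of the 41 receptor genes, RefSeq promoter windows (GRCm38.p6, the same assembly as mm10) gave a start and a strand. At 15 of these 28 the start had an interaction, against 60.1% of the 16457 autosomal coding genes with a listed start. The counts of these 28 genes summed to 141, with the interaction between Gabrg3 and Gabra5 counted for each of them. Of the 141, 89 (63.1%) touched a start, and 40 of the 89 ran from the start into the gene. Of the 89, Gabbr2 gave 22 and Grik4 gave 17, and of the 40 they gave 22 and 11. The share of interactions at a start was not computed for all coding genes. The 250 bases before the start are shown for Gabbr2, Grik4 and Gria2, 3 genes with many interactions at the start, and for the neighbours Gabra2 and Gabrg1 on chromosome 5, which had none, so that starts with and without interactions can be read side by side. At Grik4 and Gria2 the annotated start lies inside the gene span given above, and so does the window before it. The 5 windows were chosen after the counts of their genes were seen. They are written 5′ to 3′ on the strand of the gene (minus strand for all 5), with CG dinucleotides in capitals.
Gabbr2, chr4:46991715-46991964: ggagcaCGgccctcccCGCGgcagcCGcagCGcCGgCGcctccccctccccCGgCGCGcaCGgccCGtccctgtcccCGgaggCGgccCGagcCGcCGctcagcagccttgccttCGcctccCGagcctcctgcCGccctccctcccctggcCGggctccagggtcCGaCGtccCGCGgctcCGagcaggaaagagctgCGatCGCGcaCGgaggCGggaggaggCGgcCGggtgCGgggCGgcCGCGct
Grik4, chr9:42944372-42944621: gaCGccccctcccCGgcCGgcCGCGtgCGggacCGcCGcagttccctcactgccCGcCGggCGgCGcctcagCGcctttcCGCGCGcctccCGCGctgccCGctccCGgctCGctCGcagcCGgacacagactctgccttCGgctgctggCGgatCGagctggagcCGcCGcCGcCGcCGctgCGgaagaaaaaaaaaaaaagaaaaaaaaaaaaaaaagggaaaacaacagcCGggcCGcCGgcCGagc
Gria2, chr3:80802836-80803085: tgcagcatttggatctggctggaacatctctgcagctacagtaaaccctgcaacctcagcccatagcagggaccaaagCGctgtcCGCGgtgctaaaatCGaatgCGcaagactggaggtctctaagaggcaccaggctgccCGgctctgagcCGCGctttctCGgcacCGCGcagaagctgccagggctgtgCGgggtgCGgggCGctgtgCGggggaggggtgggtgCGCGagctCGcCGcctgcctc
Gabra2, chr5:71095850-71096099: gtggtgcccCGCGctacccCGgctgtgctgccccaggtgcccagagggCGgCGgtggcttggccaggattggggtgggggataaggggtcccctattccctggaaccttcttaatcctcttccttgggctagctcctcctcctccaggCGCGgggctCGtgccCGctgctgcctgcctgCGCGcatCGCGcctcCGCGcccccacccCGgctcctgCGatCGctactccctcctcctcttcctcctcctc
Gabrg1, chr5:70842618-70842867: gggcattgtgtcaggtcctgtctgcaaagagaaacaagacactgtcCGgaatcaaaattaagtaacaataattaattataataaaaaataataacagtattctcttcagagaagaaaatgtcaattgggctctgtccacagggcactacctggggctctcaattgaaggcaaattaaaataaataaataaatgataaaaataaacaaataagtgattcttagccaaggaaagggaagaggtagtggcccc

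These windows held 37 CG dinucleotides at Gabbr2, with 22 interactions at the start, 36 at Grik4, with 17, and 19 at Gria2, with 6. At genes without an interaction there were 18 at Gabra2 and 1 at Gabrg1. The numbers did not run in step over the receptor genes: the window of Grik5 held 8 and that of Grin3b held 2, with 9 interactions at each start, and that of Grik3 held 42, with 3. Receptor genes with an interaction at the start had a median of 9 CG dinucleotides per window (20 windows of 15 genes). Those without had 8.5 (14 windows of 13 genes). Windows were sorted by gene, so every window of a gene with an interaction at any of its starts counted as with one. Gabrb1, Gabrb2 and Grm8 thus counted more than once, and medians with 1 window per gene were not computed. Over all coding genes the medians were 14 with and 3 without an interaction at the start. Starts without an interaction at receptor genes thus included windows with many CG dinucleotides, among them Grik2 with 20, Gabra2 with 18, and Gria4 and Grm2 with 16 each.

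Exact matches to motifs (N for any base) were searched on both strands of the 34 windows of these 28 genes, of which some overlap. The TEAD motif GGAATG, of the DNA-binding partners of YAP, was found in 5 windows (14.7%), at Gabrb2, Grin1, Grm7 and Grm8, against 11.5% of 20085 windows of coding genes. The 2 windows of Grm7 overlap and hold the same match. The AP-1 motif TGANTCA was found in 2 (5.88%), at Grin3b and Grm8, against 6.18%. Of the RE1 element bound by REST, the left part TTCAGCACC was in 1 window (2.94%), at Grm2, against 0.329%, and the right part was in 0, against 0.134%. The palindromic NFI motif was in 0 windows, against 0.0349%. No window held matches of more than 1 motif. Such counts say only which letters stand in these windows.

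Genes that work with these receptors were read from lists chosen with earlier results of these data known. Of 29 genes of glutamate receptor auxiliary subunits and synaptic scaffolds, 18 had an interaction (62.1%), with a median of 2. The share over all autosomal coding genes was 67.8%, with a median of 3. Dlg2, a scaffold gene of 1973 kb, had 46, Dlg1 had 24 and Pick1 had 17. Of 9 genes of glutamate transport and metabolism, 7 had an interaction, with a median of 3. The highest counts were in the genes by which astrocytes take up and convert glutamate: Glul, the glutamine synthetase gene, had 51, and the transporter genes Slc1a2 and Slc1a3 had 48 and 31. The vesicular glutamate transporter genes of neurons, Slc17a7, Slc17a6 and Slc17a8, had 5, 0 and 0. With adjacent interactions merged, Slc1a2 and Slc1a3 had 12 contacts each, but Glul had 3 and Slc17a7 had 4. Of 14 genes of GABA synthesis, transport and receptor partners, 10 had an interaction, with a median of 2. The highest counts were 28 at Kctd12, 10 at Gphn and 9 at Gabarap, which merged into 4, 4 and 5 contacts. The GABA-synthesising enzyme genes Gad1 and Gad2 had 2 and 1, and the vesicular GABA transporter gene Slc32a1 had 0, as did Slc6a11, which encodes a GABA transporter of the plasma membrane. Of 5 other receptor subunit genes for GABA and glycine, Glra3 had 1 interaction, and Gabrd, Gabrp, Glra1 and Glrb had none.

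Markers of cell types were counted in the same way, and 4 of them (Slc1a2, Slc1a3, Slc17a7 and Gad1) also stand in the lists above. All 8 markers of astrocytes and radial glia had at least 1 interaction, and their median was 15.5. Oligodendrocyte lineage markers had one at 6 of 7, with a median of 8, and neuron markers at 8 of 9, with a median of 2. Over all autosomal coding genes 67.8% had an interaction, and the median was 3. Astrocyte and radial glia markers ran from 1, at Aldoc and Aqp4, to 48, at Slc1a2. The highest neuron marker was Syt1 with 13, and Tubb3 had 0. These genes differ in span, and the part of cell composition in the receptor counts was not tested.

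**Figure D4:**
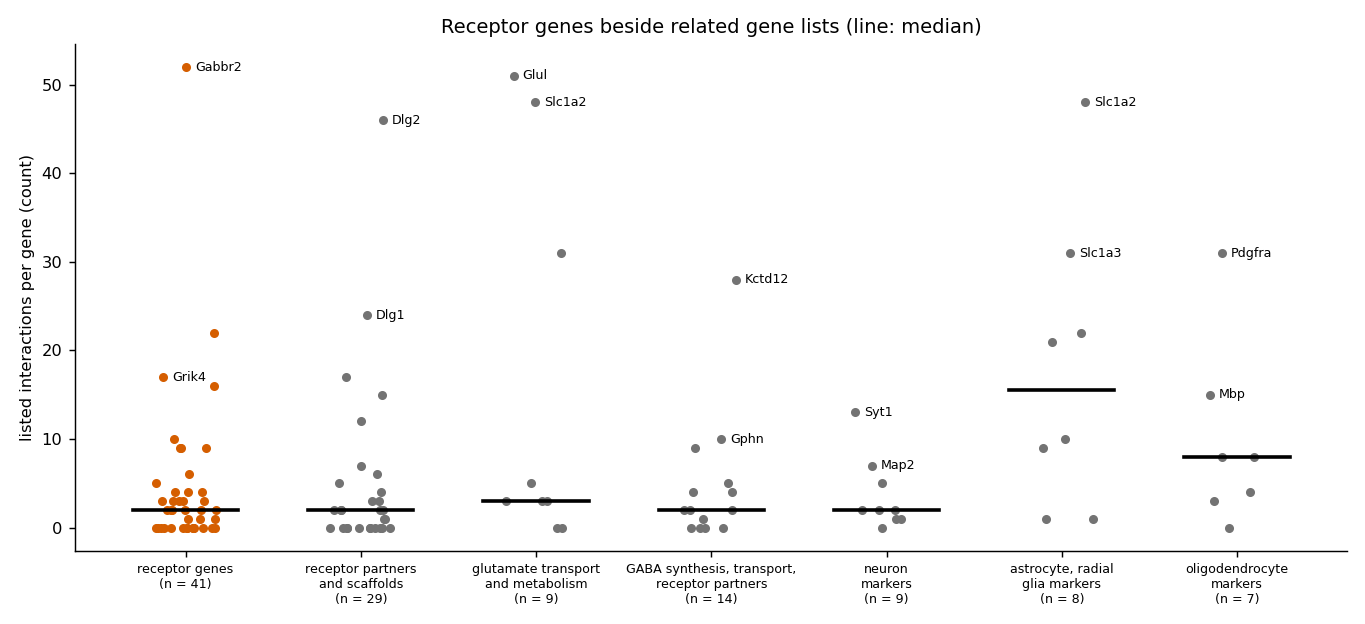
Listed interactions per gene (vertical axis) for the 41 receptor genes (orange) and for 6 lists of related genes and cell type markers (grey), with the number of genes under each name. Each point is a gene, spread sideways for legibility, the black line is the median, and 2 of the highest genes of each list are named. The medians are 2 for the receptor genes and 15.5 for the astrocyte and radial glia markers.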

How the data were processed

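The authors deposited 1 list of interactions. Per the file headers it holds the chromosome, start and end of 2 anchors, with no count, score or library. BWA and mm10 were used, per the submitters' processing notes; neither the caller, its threshold nor any pooling of libraries is given in the sources used here. Distances between bins ran from 20 to 1000 kb on 19 autosomes. Depth is unknown.

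Gene positions came from RefSeq (GRCm38.p6), without exons. A bin that overlaps several genes counts for each. Starts and strands came from the RefSeq promoter windows. Interactions within 1 bin of each other at both anchors were merged into contacts (28050 in the whole list). Classes of span were divided at 50, 100, 200 and 400 kb. Functions were tested on simulated data. Python 3.11.15, pandas 2.3.3 and SciPy 1.17.1 were used.

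The receptor genes and gene lists were chosen with earlier results of these data known. The 8 receptor genes with the most interactions, every receptor gene without one and the 3 highest genes of each list are named by rule, except for some genes that are not reported here; other genes were named after their values were seen. Alternatives were windows of 0 and 5 kb, ends or body alone, the bin midpoint, merging, and leaving out shared bins. Leaving out Gabbr2 was chosen after seeing the data. Only the tumor list was analysed here, so tumor and neural stem cells were not compared.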

Additional observations from a re-analysis of the deposited data

How the results depend on the processing

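No paired analysis was possible because interactions are listed without library or replicate. The share of receptor genes with an interaction (61.0 to 65.9% with either window, the body alone, the bin midpoint or merging, 53.7% at ends alone and 56.1% without shared bins) stayed inside its main interval, while that of all coding genes was 46.6 to 69.5% and lay below that of the receptor genes with the bin midpoint (60.3%) and without shared bins (46.6%). In addition, the number of receptor genes above the median of their span class was 9 to 12. The main values were 193 interactions, a median of 2 per gene and of 0.0588 per bin, 26.9% with both anchors in the gene and 48.9% of outside partners at a gene end. With gene ends alone these were 123, 1, 0.25, 0% and 35.8%, since the body is then left out. Merging left 85 contacts and a median of 1. With the bin midpoint, 20.2% had both anchors in the gene and 39.6% of outside partners were at a gene end. Without shared bins the medians were 1 per gene and 0.0355 per bin. Without Gabbr2, 20.6% had both anchors in the gene. Of 189 counts under the other settings for the 27 receptor genes with an interaction, 147 were within 1.5 times the main count, 38 were lower and 4 higher. The 14 genes at 0 had no interaction with the 5 kb window either, and could gain none under the other settings. The body alone gives the same bins as a window of 0 kb. With no read counts, the depth limits every count of 0.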
